A study of Homo sapiens with 12 samples.

Results

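The genes described here encode the serine/arginine-rich (SR) splicing factors and the heterogeneous nuclear ribonucleoproteins (hnRNPs). They were taken by name from the deposited gene table: every gene annotated as protein_coding whose symbol is SRSF with a number or begins with HNRNP. That gave 39 genes, 12 SRSF and 27 HNRNP, of 58735 genes in the table, 19951 of them protein_coding. Messenger RNA was sequenced in 12 samples from 4 groups of 3: HepG2 cells given geniposide, untreated HepG2 cells, Huh7 cells given geniposide, and untreated Huh7 cells. All were collected after 48 h. HepG2 is the name of a line from a hepatoblastoma and Huh7 that of a line from a hepatocellular carcinoma. Both are used here as sample labels. Geniposide is an iridoid glycoside of gardenia fruit. The labels used here state neither the dose of geniposide nor if replicates are separate cultures. P-values therefore reflect the spread of these replicates alone, and that spread could be technical. The genes were chosen by name and annotation with no measured value in the rule, but the family was proposed with results of these libraries known, including its changes with geniposide, so the p-values of single genes describe how far the samples separate and are not independent evidence about the family.

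SR proteins carry RNA recognition motifs and a tail of arginine-serine repeats. Bound to enhancer sequences in exons, they recruit the U1 and U2 particles of the spliceosome to nearby splice sites, and kinases of the SRPK and CLK families phosphorylate the tail and so govern where and how they act. hnRNPs coat nascent transcripts, often bind splicing silencers and counter SR proteins at the same exons, and also take part in export, stability and translation of mRNA. Several members of both families limit their own amount: the protein promotes inclusion of an exon with a premature stop codon in its own transcript, which nonsense-mediated decay (NMD) then removes.

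Levels are deposited FPKM, in which fragments are scaled to gene length and library size, and the libraries held 15056655 to 17211659 fragments. Changes are limma differences in log2(FPKM + 1), geniposide minus untreated, ± SE, with p adjusted over all 15518 genes that reached 1 FPKM in at least 3 of the 12 libraries; a gene was called when the adjusted p was under 0.05. The line names are used as labels only and do not settle the identity of the cells. Of 7 hepatocyte markers, 0 reached 1 FPKM in any group mean: ALB had 6 fragments, TTR 3, AFP 2 and APOB 0 over the 12 libraries. HNF4A had the most, 168. These markers do not bear out the liver origin that the line names imply. None of 5 leukocyte and 3 endothelial markers reached 1 FPKM either, while 4 of 5 fibroblast markers did. Of these, DCN and PDGFRB reached it in HepG2 only. The fibroblast sum was 44.5 to 46.6 FPKM with geniposide against 36.5 to 38.1 FPKM untreated in HepG2, and 4.94 to 7.39 FPKM against 4.65 to 4.93 FPKM in Huh7, with COL1A2 at 0 throughout. Its members moved in opposite directions in HepG2. Mean COL3A1 was 22.9 FPKM with geniposide and 14.7 untreated, and DCN 10.4 and 6.32. COL1A1 was 10.3 with geniposide and 11.9 untreated, and PDGFRB 2.09 and 4.33. The part of these markers in the results was not tested. Replicate 3 of the geniposide-treated Huh7 libraries stood apart: its counts differed from replicates 1 and 2 with a chi-square per degree of freedom of 43.4 and 44.9, against 3.01 between those and at most 6.58 between libraries of any other group. For some genes results are given with and without it, but Huh7 values given once can depend on it too. Without it the Huh7 change of HNRNPD was -0.93 in place of -1.07, and that of HNRNPA3 -0.55 in place of -0.69. The change of HNRNPK moved the other way, to -0.52 from -0.41.

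Of the 39 genes, 34 passed the filter on low values (12 SR and 22 hnRNP). The other 5 were HNRNPCL1, HNRNPCL2, HNRNPCL3 and HNRNPCL4, relatives of HNRNPC with 0 fragments in every library, which allows up to 3 fragments in each, and HNRNPUL2-BSCL2, an annotated read-through of neighbouring genes with 7 fragments over all libraries. SRSF12 passed only through the Huh7 libraries. Among the 34, summed over the 12 libraries, fragments numbered from 915 for HNRNPA1L2 to 235257 for HNRNPA1.

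SRSF1, SRSF2 and SRSF3 fell furthest of the SR genes in both lines. SRSF1 (SF2/ASF), an enhancer-binding factor and proto-oncogene (ENSG00000136450, chr17:58003360-58007346, minus strand, hg38), had 11.0, 10.6 and 10.9 FPKM in the geniposide-treated HepG2 libraries, against 26.6, 27.2 and 27.2 FPKM in untreated ones. In Huh7 it had 19.0, 16.1 and 28.1 FPKM with geniposide, against 40.4, 42.9 and 39.2 FPKM untreated. The treated mean was 40.2% of the untreated mean in HepG2 and 51.6% in Huh7, and no treated value reached an untreated one; the changes were -1.24 ± 0.15 (adjusted p = 7.20e-05) and -0.96 ± 0.15 (adjusted p = 0.000665). Replicate 3 of the treated Huh7 libraries was the highest treated value, and without it the Huh7 change was -1.18 (adjusted p = 8.53e-07). In these bulk samples, fewer cells with the transcript and less of it per cell cannot be told apart.

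SRSF2 (SC35), whose protein marks nuclear speckles (ENSG00000161547, chr17:76734115-76737374, minus strand), had 24.8, 24.3 and 28.2 FPKM with geniposide and 54.7, 54.8 and 55.0 FPKM untreated in HepG2. Its Huh7 levels were 23.3, 20.7 and 37.6 FPKM with geniposide and 63.4, 69.2 and 72.9 FPKM untreated. All treated values were below all untreated ones in both lines, with changes of -1.06 ± 0.17 (adjusted p = 0.000506) in HepG2 and -1.35 ± 0.17 (adjusted p = 0.000196) in Huh7. The Huh7 change was -1.60 without replicate 3 of the treated libraries (adjusted p = 4.91e-07). SRSF3 (SRp20), the smallest SR protein and an adaptor for mRNA export (ENSG00000112081, chr6:36594353-36605600, plus strand), had 20.8, 20.4 and 22.6 FPKM with geniposide and 47.9, 46.5 and 47.1 FPKM untreated in HepG2. Huh7 libraries gave 32.8, 27.9 and 33.1 FPKM with geniposide and 69.6, 70.9 and 71.6 FPKM untreated. Its changes were -1.12 ± 0.07 (adjusted p = 7.59e-07) in HepG2 and -1.16 ± 0.07 (adjusted p = 2.12e-06) in Huh7; the 95% interval of their difference was -0.16 to 0.25.

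SRSF4 and SRSF5, by contrast, rose in HepG2 and fell in Huh7. SRSF4 (SRp75), the SR protein with the longest arginine-serine tail (chr1:29147743-29181987, minus strand), had 17.9, 18.8 and 19.2 FPKM with geniposide and 16.4, 16.2 and 16.2 FPKM untreated in HepG2, where all treated values were higher. Levels in Huh7 were 20.2, 20.7 and 19.9 FPKM with geniposide and 24.5, 25.5 and 26.2 FPKM untreated, where all treated values were lower. The changes were 0.18 ± 0.04 (adjusted p = 0.00581) in HepG2 and -0.31 ± 0.04 (adjusted p = 0.000397) in Huh7. SRSF5 (SRp40), an SR protein known for insulin-regulated splicing (chr14:69726900-69772005, plus strand), had 39.9, 39.6 and 38.8 FPKM with geniposide and 31.2, 32.5 and 33.9 FPKM untreated in HepG2. In Huh7 it had 28.7, 28.3 and 23.6 FPKM with geniposide and 38.8, 38.1 and 37.1 FPKM untreated. Its groups were again apart in opposite directions, by 0.27 ± 0.07 (adjusted p = 0.00846) in HepG2 and -0.49 ± 0.07 (adjusted p = 0.000388) in Huh7. The sequences just upstream of the start sites of a pair of genes that fell in both lines (SRSF1 and SRSF3) and of the pair that moved in opposite directions (SRSF4 and SRSF5) are shown to set their core promoters side by side. Each is the 250 bases before the RefSeq start in GRCh38.p14, read along the gene; these starts lie inside the genes as the table places them. The windows are at chr17:58007247-58007496 (minus strand), chr6:36594112-36594361 (plus), chr1:29181901-29182150 (minus) and chr14:69766892-69767141 (plus), with the CCAAT box, the GC box GGGCGG and the TATA box TATAAA from either strand in capitals.
SRSF1: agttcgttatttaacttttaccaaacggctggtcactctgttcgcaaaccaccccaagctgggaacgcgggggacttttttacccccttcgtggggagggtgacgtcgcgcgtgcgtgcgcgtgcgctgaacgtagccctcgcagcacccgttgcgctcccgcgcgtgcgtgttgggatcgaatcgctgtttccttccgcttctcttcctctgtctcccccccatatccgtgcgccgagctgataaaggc
SRSF3: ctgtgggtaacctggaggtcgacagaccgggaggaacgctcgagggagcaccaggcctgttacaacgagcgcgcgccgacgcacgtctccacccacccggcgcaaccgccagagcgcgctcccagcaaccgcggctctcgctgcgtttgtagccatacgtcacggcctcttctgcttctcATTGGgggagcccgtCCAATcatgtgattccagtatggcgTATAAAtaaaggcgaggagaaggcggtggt
SRSF4: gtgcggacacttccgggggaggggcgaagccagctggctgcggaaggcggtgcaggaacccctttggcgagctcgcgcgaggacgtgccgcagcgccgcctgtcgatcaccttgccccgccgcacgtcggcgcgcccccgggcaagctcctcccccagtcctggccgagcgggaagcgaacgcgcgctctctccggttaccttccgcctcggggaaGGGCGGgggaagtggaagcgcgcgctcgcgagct
SRSF5: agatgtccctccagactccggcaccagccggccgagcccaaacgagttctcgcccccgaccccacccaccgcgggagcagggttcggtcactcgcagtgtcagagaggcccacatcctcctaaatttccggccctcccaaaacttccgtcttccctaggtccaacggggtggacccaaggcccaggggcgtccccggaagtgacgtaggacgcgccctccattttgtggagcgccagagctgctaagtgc

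The SRSF3 window held CCAAT at 70 bases (as ATTGG) and 55 bases before the start and TATAAA at 30 bases, and the SRSF4 window held GGGCGG at 34 bases. The windows of SRSF1 and SRSF5 held none of the motifs searched. On both strands these were the CCAAT box, the E-box CACGTG, the GC box GGGCGG, the heat shock element TTCNNGAA and the TATA box TATAAA; no occurrences of different motifs overlapped in these 4 windows. Over all 34 genes, 31 matched RefSeq promoters, with 45 promoters in all. The CCAAT box was in 46.7% of these against 32.0% of the 35116 promoters in the table, the GC box in 60.0% against 42.6%, the E-box in 15.6% against 6.34%, the TATA box in 13.3% against 10.7% and the heat shock element in 2.22% against 6.62%. The 35116 promoters were not restricted to protein_coding genes or to genes that passed the filter, as the 45 were. The sets are thus unlike, and the gaps between their shares were not tested. The promoters of genes with several starts share sequence, and a match is a description of the letters only.

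Across the family, 20 of 34 genes fell and 2 rose with geniposide in HepG2, where 42.5% of all genes tested were called, 21.5% fallen and 21.0% risen. In Huh7, 27 of 34 fell and 0 rose, where 34.5% of all genes tested were called, 18.1% fallen and 16.4% risen. In the fit with a filter of 5 FPKM, 30.8% of genes fell in HepG2 and 27.4% in Huh7. There 23.2% and 17.4% rose, with medians over the genes of that fit of -0.04 and -0.05. The median change of the 34 genes was -0.31 in HepG2 and -0.52 in Huh7, against 0.00 over all genes in either line. By family, 8 of 12 SR genes fell and 2 rose in HepG2 and 10 of 12 fell in Huh7, and 12 of 22 hnRNP genes fell in HepG2 and 17 of 22 in Huh7. Without replicate 3 of the treated Huh7 libraries, 25 fell and 3 rose in HepG2, whose spread is pooled with that of Huh7, and 30 fell in Huh7; in that fit 27.3% of all genes tested fell and 26.5% rose in HepG2, and 23.5% fell in Huh7. At a looser description, all 3 treated values lay below all 3 untreated values for 24 genes in HepG2, where the background was 29.4%, and for 27 in Huh7, where it was 22.6%. They lay above for SRSF4, SRSF5 and SRSF11 in HepG2 and for 0 genes in Huh7 (background 29.4% and 21.3%).

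**Figure D1:**
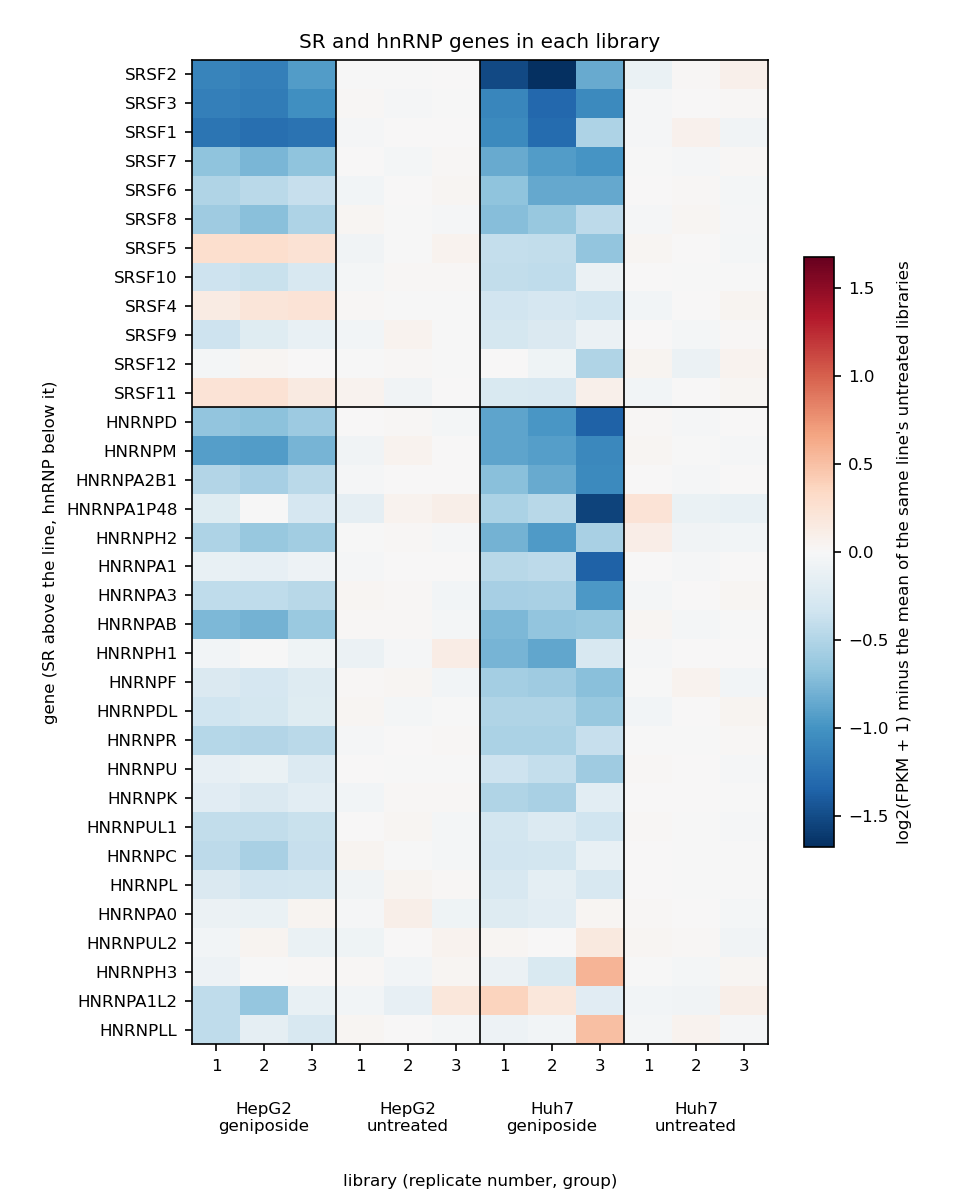
Each row is a gene and each column a library; colour is log2(FPKM + 1) minus the mean of the untreated libraries of the same line, blue below 0 and red above. SR genes are above the horizontal line and hnRNP genes under it, each ordered by the Huh7 change; 20 genes fell in both lines, and SRSF4 and SRSF5 are red in treated HepG2 and blue in treated Huh7 libraries.

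The summed level of the family moved in the same way. The 12 SR genes together gave 230.3, 231.7 and 241.2 FPKM with geniposide in HepG2, against 324.0, 325.3 and 329.2 FPKM untreated. In Huh7 they gave 289.9, 274.3 and 319.1 FPKM with geniposide, against 479.8, 489.5 and 491.5 FPKM untreated. The hnRNP genes together gave 1121, 1103 and 1154 FPKM with geniposide in HepG2 against 1438, 1464 and 1442 FPKM untreated, and 1179, 1175 and 1101 FPKM with geniposide in Huh7 against 1737, 1715 and 1721 FPKM untreated. The treated and untreated sums did not overlap in either family or line. As a share of all fragments, the 34 genes took 0.746% ± 0.0104 with geniposide and 0.933% ± 0.0130 untreated in HepG2, and 1.03% ± 0.0276 with geniposide and 1.45% ± 0.00417 untreated in Huh7 (SD, n = 3).

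The 20 genes that fell in both lines were SRSF1, SRSF2, SRSF3, SRSF6, SRSF7, SRSF8, SRSF9, SRSF10, HNRNPA2B1, HNRNPA3, HNRNPAB, HNRNPC, HNRNPD, HNRNPDL, HNRNPF, HNRNPH2, HNRNPL, HNRNPM, HNRNPR and HNRNPUL1. The other 7 that fell in Huh7 were SRSF4 and SRSF5, which rose in HepG2, and HNRNPA1, HNRNPA1P48, HNRNPH1, HNRNPK and HNRNPU, which were not called there. No gene was called in HepG2 alone, and 7 were called in neither line. Across the 34 genes the changes in the 2 lines, which have separate untreated libraries, had a Pearson correlation of 0.674 and a Spearman correlation of 0.654, against 0.342 and 0.361 across all 15518 genes. These correlations describe genes measured in the same libraries, which are not independent replicates. Of the 15518 genes, 9282 passed the filter of 5 FPKM. The correlation over genes of a level like that of the family was not computed.

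**Figure D2:**
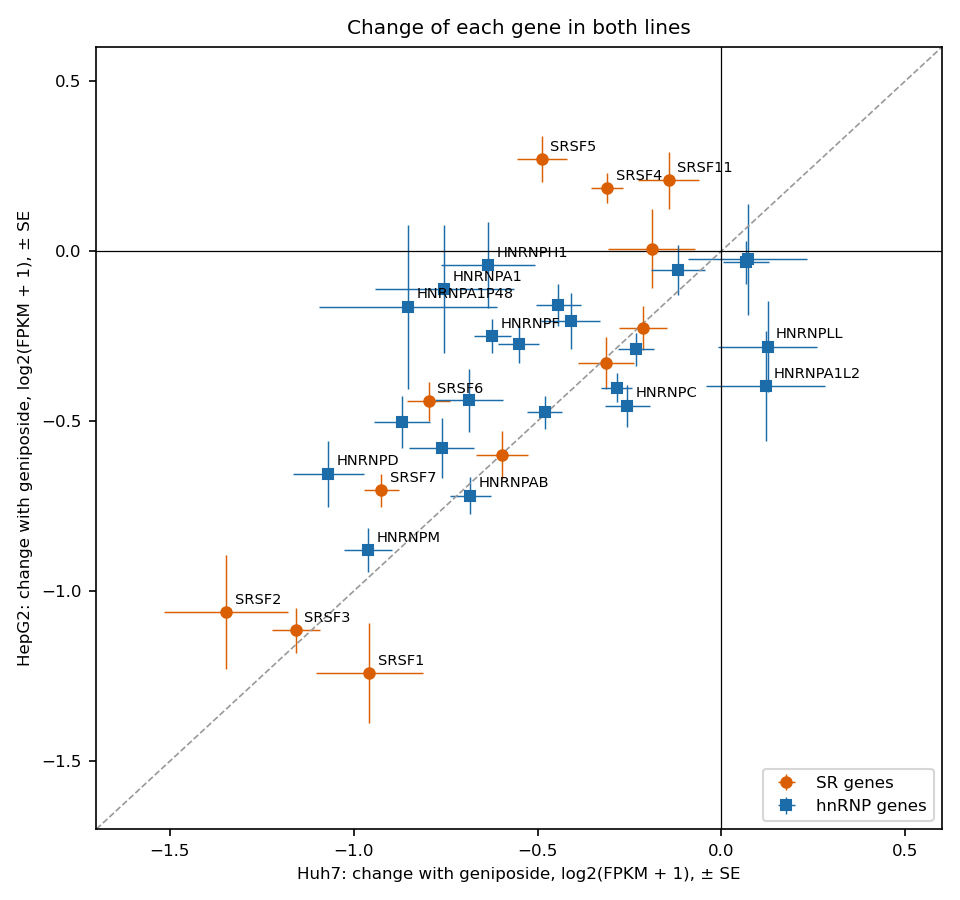
Change with geniposide in log2(FPKM + 1), Huh7 on the horizontal and HepG2 on the vertical axis, with bars of 1 SE; circles are SR genes, squares hnRNP genes and the dashed line marks equal change. SRSF1, SRSF2 and SRSF3 lie at the lower left near -1 in both lines, and SRSF5 and SRSF4 lie above 0 in HepG2 and below 0 in Huh7.

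Among the remaining SR genes, SRSF7 and SRSF8 fell in both lines to between 52.0% and 64.0% of the untreated means. SRSF7 (9G8), which also acts in mRNA export and 3′ end processing (chr2:38743599-38751494, minus strand), had 22.1, 20.7 and 22.1 FPKM with geniposide and 36.1, 35.0 and 36.5 FPKM untreated in HepG2. Its Huh7 levels were 36.8, 34.7 and 33.2 FPKM with geniposide and 67.1, 66.3 and 68.0 FPKM untreated. Its treated and untreated values were apart in both lines, with changes of -0.70 ± 0.05 (adjusted p = 1.92e-06) in HepG2 and -0.92 ± 0.05 (adjusted p = 1.34e-06) in Huh7. SRSF8 (SRp46), which arose as a retrotransposed copy of SRSF2 (chr11:95067197-95071224, plus strand), had 3.79, 3.45 and 4.03 FPKM with geniposide and 6.34, 6.15 and 6.12 FPKM untreated in HepG2. Huh7 libraries gave 8.40, 8.92 and 10.3 FPKM with geniposide and 14.2, 14.8 and 14.2 FPKM untreated. The changes of SRSF8 were -0.60 ± 0.07 (adjusted p = 7.19e-05) in HepG2 and -0.60 ± 0.07 (adjusted p = 0.000142) in Huh7.

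SRSF6, SRSF9 and SRSF10 fell by smaller amounts in HepG2 than the leading trio. SRSF6 (SRp55), an exon-inclusion factor, had 23.4, 24.3 and 25.5 FPKM with geniposide and 32.3, 33.8 and 34.4 FPKM untreated in HepG2, a change of -0.44 ± 0.06 (adjusted p = 0.000143). Levels in Huh7 were 34.9, 30.6 and 30.7 FPKM with geniposide and 56.8, 57.4 and 55.0 FPKM untreated, a change of -0.80 ± 0.06 (adjusted p = 7.39e-06). SRSF10 (SRp38), which represses splicing when dephosphorylated, averaged 13.4 ± 0.502 FPKM with geniposide and 17.1 ± 0.418 FPKM untreated in HepG2 and 18.2 ± 2.50 FPKM with geniposide and 22.7 ± 0.0399 FPKM untreated in Huh7 (SD, n = 3). Its Huh7 call was lost with that line fitted alone (-0.31, adjusted p = 0.0740). SRSF9 (SRp30c) changed least of the genes that fell, by -0.23 ± 0.07 (adjusted p = 0.0168) in HepG2 and -0.21 ± 0.07 (adjusted p = 0.0270) in Huh7. The HepG2 call of SRSF9 was lost with TPM scaling (adjusted p = 0.0651), without geniposide replicate 1 (0.0714) and without untreated replicate 2 (0.0649), and its Huh7 call held under 12 of 20 alternatives; it also shares 2082 bases with GATC on the other strand (7.92 FPKM), and with no strand-specific counting stated the reads of the pair cannot be told apart.

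**Figure D3:**
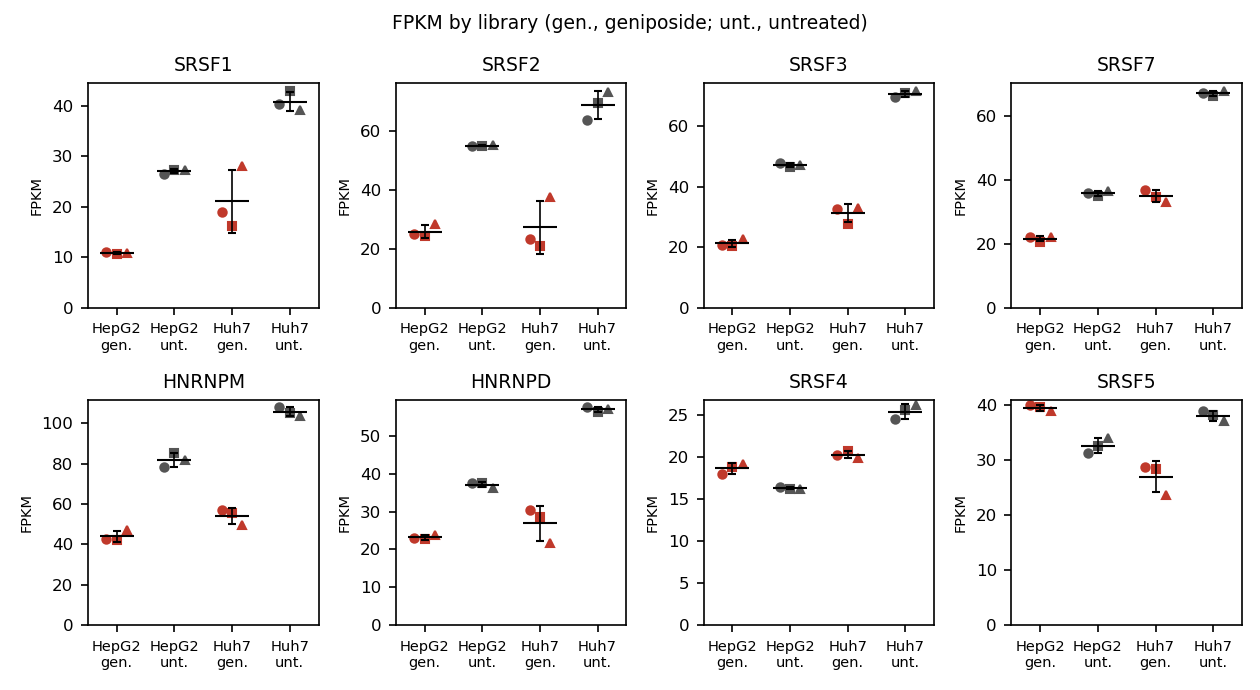
FPKM of 8 genes in each library; circles, squares and triangles are replicates 1, 2 and 3, red for geniposide and grey for untreated, with bars at the mean ± SD (n = 3). SRSF1, SRSF2, SRSF3, SRSF7, HNRNPM and HNRNPD are lower in every treated library of both lines, whereas SRSF4 and SRSF5 are higher in treated HepG2 and lower in treated Huh7 libraries.

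Among the hnRNP genes, HNRNPM fell furthest in HepG2 and HNRNPD in Huh7. HNRNPM, a regulator of alternative splicing in epithelial-mesenchymal transition (chr19:8444767-8489114, plus strand), had 42.4, 42.2 and 47.2 FPKM with geniposide and 78.1, 85.0 and 81.6 FPKM untreated in HepG2. In Huh7 it had 56.8, 55.4 and 49.4 FPKM with geniposide and 108, 105 and 104 FPKM untreated. The treated means were 53.9% of the untreated mean in HepG2 and 51.0% in Huh7, and the changes -0.88 ± 0.06 (adjusted p = 3.07e-06) and -0.96 ± 0.06 (adjusted p = 4.65e-06). HNRNPD (AUF1), which binds AU-rich elements and speeds the decay of their mRNAs (chr4:82352498-82374503, minus strand), had 23.0, 22.6 and 23.9 FPKM with geniposide and 37.4, 37.6 and 36.3 FPKM untreated in HepG2. Its Huh7 levels were 30.4, 28.6 and 21.7 FPKM with geniposide and 57.6, 56.4 and 57.0 FPKM untreated. Its groups did not overlap, and its changes were -0.65 ± 0.10 (adjusted p = 0.000319) in HepG2 and -1.07 ± 0.10 (adjusted p = 2.76e-05) in Huh7. HNRNPDL, its closest relative, had 28.3, 29.2 and 31.2 FPKM with geniposide and 36.9, 35.0 and 35.9 FPKM untreated in HepG2. Huh7 libraries gave 37.4, 37.5 and 34.0 FPKM with geniposide and 51.7, 53.8 and 55.5 FPKM untreated. HNRNPDL thus fell less than HNRNPD, with changes of -0.27 ± 0.05 (adjusted p = 0.00214) in HepG2 and -0.55 ± 0.05 (adjusted p = 4.81e-05) in Huh7, a gap between genes that was not tested.

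The A/B group of hnRNPs, abundant binders of silencers and of UAG motifs, fell with the exception of HNRNPA0, HNRNPA1L2 and, in HepG2, HNRNPA1 and HNRNPA1P48. HNRNPAB had 101, 97.8 and 111 FPKM with geniposide and 172, 173 and 166 FPKM untreated in HepG2. Levels in Huh7 were 136, 144 and 147 FPKM with geniposide and 234, 225 and 229 FPKM untreated. Its changes were -0.72 ± 0.06 (adjusted p = 4.04e-06) in HepG2 and -0.68 ± 0.06 (adjusted p = 1.45e-05) in Huh7. HNRNPA2B1, known for carrying RNA to neurites and for sorting miRNAs into exosomes, had 84.0, 80.2 and 86.3 FPKM with geniposide and 118, 119 and 119 FPKM untreated in HepG2. In Huh7 it had 78.2, 71.2 and 60.8 FPKM with geniposide and 129, 127 and 129 FPKM untreated. It fell in both lines, with changes of -0.50 ± 0.08 (adjusted p = 0.000362) in HepG2 and -0.87 ± 0.08 (adjusted p = 2.35e-05) in Huh7. On the other strand HNRNPA2B1 shares 368 bases with CBX3 (44.1 FPKM) and 14069 with NFE2L3 (4.87 FPKM). Other members also overlap genes on the other strand, with the limit given for SRSF9. Among them are HNRNPU with COX20 (4420 bases), HNRNPAB with PHYKPL (2667) and SRSF2 with MFSD11 (1510). HNRNPA3 averaged 43.3 ± 0.531 FPKM with geniposide and 59.0 ± 1.51 FPKM untreated in HepG2, and 54.7 ± 8.64 FPKM with geniposide and 87.8 ± 2.10 FPKM untreated in Huh7 (SD, n = 3), and fell in both.

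HNRNPA1, the best-known antagonist of SRSF1 at splice sites (chr12:54280193-54287088, plus strand), had the highest level of the family in untreated libraries of both lines. It had 214, 212 and 219.5 FPKM with geniposide and 229.9, 234 and 234 FPKM untreated in HepG2. Its Huh7 levels were 226, 229 and 121 FPKM with geniposide and 313, 308 and 314 FPKM untreated. Treated values were below untreated ones in both lines, but the Huh7 change of -0.75 ± 0.19 (adjusted p = 0.0106) leaned on replicate 3. Without that library the change was -0.45 (adjusted p = 2.01e-06), and with Huh7 fitted alone the call was lost (adjusted p = 0.101). In HepG2 the change was -0.11 ± 0.19 (adjusted p = 0.696), but the adjusted p was 0.00335 without replicate 3 of treated Huh7 and 0.0118 with HepG2 fitted alone, since the fit over all libraries applies the wide Huh7 spread to both lines. HNRNPA1P48, a copy of HNRNPA1 that the table annotates as coding, had 6.43, 6.79 and 2.66 FPKM with geniposide and 11.6, 8.98 and 8.91 FPKM untreated in Huh7, with the same library lowest, and overlapping values of 7.07, 8.22 and 6.64 FPKM with geniposide and 7.34, 8.66 and 8.92 FPKM untreated in HepG2. Its Huh7 change of -0.85 ± 0.24 (adjusted p = 0.0193) was -0.50 without replicate 3 (adjusted p = 0.00737), and its call was lost without untreated replicate 1 (-0.74, adjusted p = 0.0723) and with Huh7 fitted alone (adjusted p = 0.122). Fragments of HNRNPA1 and its copies cannot be assigned with certainty: the table lists 74 named HNRNPA1 pseudogenes, which held 1.17% as many fragments as HNRNPA1 itself.

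**Figure D4:**
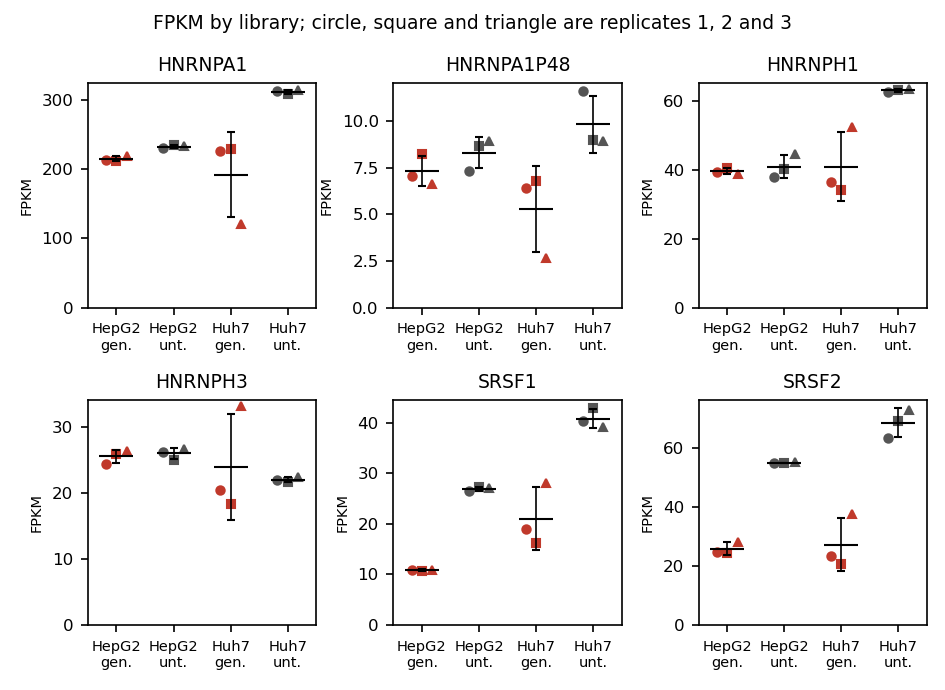
FPKM in each library of 6 genes in which replicate 3 of treated Huh7 (red triangle) departed from replicates 1 and 2; markers and bars as in the plot of 8 genes. That library is lowest for HNRNPA1 and HNRNPA1P48 and highest among treated Huh7 libraries for HNRNPH1, HNRNPH3, SRSF1 and SRSF2.

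Replicate 3 of treated Huh7 did not depart from the others in a single direction. Relative to the mean of replicates 1 and 2 it was lower by 1.06 (log2) for HNRNPA1P48, 0.90 for HNRNPA1 and 0.43 for HNRNPD, and higher by 0.75 for HNRNPH3, 0.75 for SRSF2 and 0.65 for SRSF1. The median of the 34 genes stood at -0.51, -0.49 and -0.51 in the 3 treated Huh7 libraries relative to the untreated mean, and at -0.38, -0.35 and -0.28 in the 3 treated HepG2 libraries.

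The hnRNPs that bind uridine, cytidine, CA-repeat or guanine tracts fell to differing degrees. HNRNPC, which packages nascent transcripts through uridine tracts, had 67.2, 62.6 and 70.1 FPKM with geniposide and 94.3, 91.5 and 89.2 FPKM untreated in HepG2. Huh7 libraries gave 87.9, 88.5 and 101 FPKM with geniposide and 111, 109.8 and 110.2 FPKM untreated. It fell in both, with changes of -0.46 ± 0.06 (adjusted p = 0.000172) in HepG2 and -0.26 ± 0.06 (adjusted p = 0.00862) in Huh7; its 9 named pseudogenes held 2.05% as many fragments. HNRNPK, which binds cytidine tracts in RNA and DNA, had 121, 117 and 123 FPKM with geniposide and 135, 141 and 141 FPKM untreated in HepG2. Levels in Huh7 were 111, 109 and 139 FPKM with geniposide and 159, 159 and 157 FPKM untreated. HNRNPK fell in Huh7, with a change of -0.41 ± 0.08 (adjusted p = 0.00298), and in HepG2 its treated values were also below the untreated ones without passing the test (-0.21 ± 0.08, adjusted p = 0.0633). That HepG2 value was called without treated Huh7 replicate 2 (adjusted p = 0.0459) or replicate 3 (0.000203) and with HepG2 fitted alone (0.00369). HNRNPL, which binds CA repeats, fell to 81.4% of the untreated mean in HepG2 (adjusted p = 0.000720) and 84.8% in Huh7 (adjusted p = 0.00397).

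The F/H group, which binds guanine tracts, split between its members. HNRNPF had 87.9, 85.6 and 89.7 FPKM with geniposide and 106, 107 and 101 FPKM untreated in HepG2, a change of -0.25 ± 0.05 (adjusted p = 0.00230). In Huh7 it had 62.3, 61.5 and 56.8 FPKM with geniposide and 92.4, 96.9 and 90.3 FPKM untreated, a change of -0.62 ± 0.05 (adjusted p = 1.45e-05). HNRNPH2, encoded on the X chromosome, fell in both lines, with changes of -0.58 ± 0.09 (adjusted p = 0.000394) in HepG2 and -0.76 ± 0.09 (adjusted p = 0.000124) in Huh7. HNRNPH1 had overlapping values in HepG2, 39.6, 40.7 and 38.9 FPKM with geniposide and 38.1, 40.2 and 44.7 FPKM untreated. In Huh7 it fell, with 36.5, 34.1 and 52.4 FPKM with geniposide and 62.6, 63.3 and 63.6 FPKM untreated, a change of -0.64 ± 0.13 (adjusted p = 0.00325) that was -0.82 without replicate 3 of the treated libraries. HNRNPH3 was called in neither line, at 25.6 ± 1.02 FPKM with geniposide and 26.0 ± 0.849 FPKM untreated in HepG2 and 24.0 ± 8.05 FPKM with geniposide and 22.1 ± 0.437 FPKM untreated in Huh7 (SD, n = 3). Its Huh7 difference of 0.07 turned to -0.18 and passed the test (adjusted p = 0.0177) without replicate 3 of the treated libraries, where its level was 33.2 FPKM.

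HNRNPU, a nuclear scaffold protein that binds both chromatin and RNA (chr1:244840638-244864560, minus strand), had 35.4, 35.9 and 33.1 FPKM with geniposide and 39.1, 38.9 and 39.0 FPKM untreated in HepG2. Its Huh7 levels were 47.7, 45.8 and 40.1 FPKM with geniposide and 61.4, 60.8 and 60.1 FPKM untreated. HNRNPU fell in Huh7, with a change of -0.44 ± 0.06 (adjusted p = 0.000358), while its HepG2 values, though apart, missed the threshold (-0.16 ± 0.06, adjusted p = 0.0573). They passed it with a filter of 5 FPKM (adjusted p = 0.0495), with HepG2 fitted alone (0.0119) and without treated Huh7 replicate 1 (0.0396) or 3 (0.00213). Of its relatives, HNRNPUL1 fell in HepG2 (-0.40 ± 0.04, adjusted p = 3.80e-05) and in Huh7 (-0.29 ± 0.04, adjusted p = 0.000627), sharing 6012 bases with TGFB1 on the other strand (39.4 FPKM). HNRNPUL2 was not called, with 95% intervals of -0.17 to 0.11 in HepG2 and -0.07 to 0.21 in Huh7. HNRNPR, a partner of the survival motor neuron protein, fell almost equally, to 71.1% of the untreated mean in HepG2 (adjusted p = 2.29e-05) and 70.8% in Huh7 (adjusted p = 4.72e-05).

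The 7 genes called in neither line were SRSF11, SRSF12, HNRNPA0, HNRNPA1L2, HNRNPH3, HNRNPLL and HNRNPUL2. SRSF11 (p54), an SR-related factor of nuclear speckles, had higher values with geniposide in HepG2, 29.7, 30.2 and 28.3 FPKM with geniposide against 26.3, 24.2 and 25.4 FPKM untreated, and overlapping values in Huh7, 34.9, 34.6 and 44.4 FPKM with geniposide against 40.6, 41.8 and 42.9 FPKM untreated. Its HepG2 change of 0.21 ± 0.08 missed the threshold (adjusted p = 0.0682) but was called under 5 of 20 alternatives, among them TPM scaling (0.28, adjusted p = 0.0265) and the fit without replicate 3 of treated Huh7 (adjusted p = 0.00107). Without that library its Huh7 change of -0.14 was -0.26 and called (adjusted p = 0.000866), and HNRNPA0, another silencer-binding hnRNP, was called there too (-0.19, adjusted p = 0.0206). HNRNPLL, known for repressing exons of the phosphatase gene PTPRC in lymphocytes, averaged 8.99 ± 0.973 FPKM with geniposide and 11.1 ± 0.275 FPKM untreated in HepG2, and 9.61 ± 2.55 FPKM with geniposide and 8.55 ± 0.325 FPKM untreated in Huh7 (SD, n = 3). Its HepG2 change of -0.28 (adjusted p = 0.120) was called without replicate 3 of treated Huh7 (adjusted p = 0.00400). HNRNPA1L2, an intronless HNRNPA1-like gene whose fragments could come from HNRNPA1, averaged 2.13 ± 0.581 FPKM with geniposide and 3.09 ± 0.495 FPKM untreated in HepG2 (SD, n = 3), with an adjusted p of 0.0705 that was 0.0290 without replicate 3 of treated Huh7 and 0.0258 without replicate 3 of treated HepG2.

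The difference between the lines in the response, tested as the HepG2 change minus the Huh7 change, was called for 11 of 34 genes. All 11 had the higher change in HepG2, which means less negative or more positive. Of all genes tested, 27.8% were called, 14.1% in that direction. The 11 were SRSF4 (0.49 ± 0.06, adjusted p = 0.000324), SRSF5 (0.76 ± 0.10, adjusted p = 0.000378), HNRNPF (0.37 ± 0.07, adjusted p = 0.00363), SRSF6 (0.35 ± 0.08, adjusted p = 0.00969), HNRNPDL, HNRNPA2B1, HNRNPH1, HNRNPU, SRSF7, HNRNPD and SRSF11. The 4 with values kept the call under all 19 alternatives, and the other 7 lost it under at least 5. For HNRNPF, SRSF6, HNRNPDL, HNRNPA2B1, HNRNPH1, HNRNPU, SRSF7 and HNRNPD both changes were negative, and the fall was smaller in HepG2. Without replicate 3 of treated Huh7, 15 genes were called with the higher change in HepG2 and 2 with the lower, where 19.6% and 20.2% of all genes tested were. For the leading SR genes the difference was not called, with 95% intervals of -0.74 to 0.17 for SRSF1, -0.24 to 0.81 for SRSF2 and -0.16 to 0.25 for SRSF3. The median difference over the 34 genes was 0.19, against 0.00 over all genes.

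The lines also differed before treatment. In untreated HepG2 libraries 20 of 34 genes were lower and 4 higher than in untreated Huh7 libraries, where 71.8% of all genes tested were called, 35.8% lower and 36.1% higher. Of the SR genes, 11 of 12 were lower in HepG2 and 0 higher, and SRSF2 was not called (-0.31 ± 0.17, adjusted p = 0.117). The 11, and so the 20, include SRSF12, which passed the filter only through Huh7 and had to differ. Its call is no evidence about the SR genes. Of 22 hnRNP genes, 9 were lower and 4 higher. The median over the 34 genes was -0.38, against -0.01 over all genes. Scaling bears on this comparison: with TPM scaling the median of all genes moved to -0.27 and that of the 34 genes to -0.67, and with limma voom on recovered fragments to -0.29 and -0.67.

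SRSF12 (SRrp35), an SR-related repressor, had 0.0148, 0.0290 and 0.0153 FPKM in untreated HepG2 and 4.25, 3.74 and 4.27 FPKM in untreated Huh7 libraries. It passed the filter only through Huh7, so it had to differ; the difference was -2.32 ± 0.12. With geniposide it had 0, 0.0466 and 0.0281 FPKM in HepG2 and 4.10, 3.83 and 2.59 FPKM in Huh7, and neither change was called. SRSF8 had 6.34, 6.15 and 6.12 FPKM in untreated HepG2 and 14.2, 14.8 and 14.2 FPKM in untreated Huh7, a difference of -1.09 ± 0.07 (adjusted p = 9.66e-08). SRSF7 followed at -0.89 ± 0.05 (adjusted p = 2.11e-08), with all HepG2 values under all Huh7 values. HNRNPUL2 was the clearest in the other direction, at 10.1, 10.6 and 11.0 FPKM in untreated HepG2 and 5.00, 4.96 and 4.65 FPKM in untreated Huh7, a difference of 0.98 ± 0.06 (adjusted p = 8.99e-08). HNRNPH2 was also higher in HepG2, at 66.1, 66.8 and 65.5 FPKM against 44.0, 39.0 and 39.6 FPKM in Huh7 (0.68 ± 0.09, adjusted p = 3.23e-05). HNRNPLL had 11.4, 11.1 and 10.8 FPKM in untreated HepG2 and 8.29, 8.92 and 8.44 FPKM in untreated Huh7. It was called higher (0.34 ± 0.13, adjusted p = 0.0399) but kept the call under 7 of 19 alternatives, and HNRNPF (0.16 ± 0.05, adjusted p = 0.0129) turned to -0.11 with TPM scaling and -0.12 with voom.

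In the untreated libraries the order of levels was led by hnRNPs. In HepG2 the 5 highest were HNRNPA1 at 233 ± 2.34, HNRNPAB at 170.4 ± 3.54, HNRNPK at 139 ± 3.77, HNRNPA2B1 at 119 ± 0.998 and HNRNPF at 105 ± 3.03 FPKM. In Huh7 they were HNRNPA1 at 312 ± 2.94, HNRNPAB at 229 ± 4.94, HNRNPK at 158 ± 1.18, HNRNPA2B1 at 128 ± 1.19 and HNRNPC at 110.2 ± 0.439 FPKM (SD, n = 3). The values of these neighbours did not overlap in either line. Of the SR genes, SRSF2 was highest in HepG2 at 54.8 ± 0.162 FPKM, while in Huh7 SRSF3 at 70.7 ± 1.01 and SRSF2 at 68.5 ± 4.79 FPKM overlapped.

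Other genes of the splicing machinery were counted in the same fit, from lists written for this comparison. The lists were chosen with earlier results of these data known. Their counts and shares are therefore descriptions and not independent evidence. Of 15 regulators of SR proteins (kinases, phosphatases and import factors), 7 rose and 3 fell in HepG2 and 4 rose and 2 fell in Huh7, with median changes of 0.11 and 0.00. These shares are 46.7% risen and 20% fallen in HepG2, where 21.0% and 21.5% of all genes tested did so, and 26.7% and 13.3% in Huh7, where 16.4% and 18.1% did. CLK1, a nuclear kinase that phosphorylates the arginine-serine tail, averaged 28.4 ± 0.355 FPKM with geniposide and 11.9 ± 0.506 FPKM untreated in HepG2 (adjusted p = 0.00103), and 11.9 ± 5.54 FPKM with geniposide and 6.43 ± 0.303 FPKM untreated in Huh7 (adjusted p = 0.0228; SD, n = 3). In Huh7 its rise of 0.71 was 0.38 without replicate 3 of the treated libraries (adjusted p = 0.000128), and it was not called without untreated replicate 1 (adjusted p = 0.0613) or 3 (0.0661), with no filter (0.0543) or with Huh7 fitted alone (0.144). CLK3 rose in both lines too, by 0.48 (adjusted p = 0.000226) in HepG2 and 0.30 (adjusted p = 0.00587) in Huh7, as did the kinase PIM1, by 0.99 (adjusted p = 1.49e-05) and 0.44 (adjusted p = 0.00422). Fitted with Huh7 alone, the Huh7 calls of CLK3 (adjusted p = 0.0701) and PIM1 (0.0621) were lost. PPP1CA, a catalytic subunit of protein phosphatase 1, fell in HepG2 (-0.49, adjusted p = 0.000439), and the kinases PRPF4B (-0.57, adjusted p = 0.000839) and AKT1 (-0.40, adjusted p = 0.0105) fell in Huh7. The AKT1 change was -0.26 without replicate 3 of the treated libraries (adjusted p = 0.000924), and it was not called with Huh7 fitted alone (0.0918). The Huh7 counts of this list shifted to 0 risen and 1 fallen with Huh7 fitted alone, where 9.8% of all genes tested rose and 11.2% fell. Without replicate 3 of the treated libraries 6 had fallen, where 23.5% of all genes tested did.

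Of 22 SR-related genes, whose proteins carry arginine-serine stretches outside the SRSF family, 4 rose and 7 fell in HepG2 and 0 rose and 15 fell in Huh7, with medians of -0.04 and -0.30. The fallen share was 31.8% in HepG2 and 68.2% in Huh7, against 21.5% and 18.1% of all genes tested. Of genes passing a filter of 5 FPKM, 30.8% fell in HepG2, near the share of this list, and 27.4% in Huh7. The risen share of the list in HepG2 was 18.2%, near the 21.0% of all genes. TRA2A, a sequence-specific splicing activator, fell in both lines, by 0.50 in HepG2 (adjusted p = 2.21e-05) and by 0.31 in Huh7 (adjusted p = 0.000946), and ARGLU1 rose in HepG2 (0.45, adjusted p = 2.92e-05). BCLAF1 fell in both lines, by 0.58 in HepG2 (adjusted p = 0.000118) and by 0.81 in Huh7 (adjusted p = 2.82e-05), as did U2AF2, which recognises the polypyrimidine tract (-0.51, adjusted p = 0.000117, and -0.45, adjusted p = 0.000424). SRRM1, a splicing coactivator, and SCAF1 fell in Huh7, by 0.46 (adjusted p = 0.000347) and 0.32 (adjusted p = 0.000436). Of 35 other hnRNP-class proteins and splicing regulators, 2 rose and 16 fell in HepG2 and 6 rose and 14 fell in Huh7, with medians of -0.12 and -0.17. Here 45.7% fell in HepG2 and 40.0% in Huh7, again against 21.5% and 18.1% of all genes, and 30.8% and 27.4% with a filter of 5 FPKM. The 17.1% that rose in Huh7 is near the 16.4% of all genes. PSPC1, a paraspeckle protein, fell in both lines (-0.68, adjusted p = 1.44e-05, and -0.87, adjusted p = 7.51e-06), as did SYNCRIP, also called hnRNP Q (-0.74, adjusted p = 1.80e-05, and -0.63, adjusted p = 0.000106). TAF15 and EWSR1, of the FET family of RNA-binding proteins, fell in HepG2 by 0.98 (adjusted p = 8.26e-06) and 0.77 (adjusted p = 4.00e-06); in Huh7 EWSR1 fell by 0.31 (adjusted p = 0.00254) and TAF15 was not called (-0.19, adjusted p = 0.0996). SFPQ, a partner of PSPC1, fell by 0.57 in HepG2 (adjusted p = 0.000656) and by 1.02 in Huh7 (adjusted p = 2.93e-05), and FUBP1 fell in Huh7 (-0.48, adjusted p = 9.12e-05).

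Of 50 genes of the core spliceosome, 0 rose and 35 fell in HepG2 and 2 rose and 25 fell in Huh7, with median changes of -0.36 and -0.27. In Huh7, 38 had fallen without replicate 3 of the treated libraries, where 23.5% of all genes tested fell. With Huh7 fitted alone 15 had fallen, where 11.2% of all genes tested did. The fallen share was 70% in HepG2 and 50% in Huh7, against 21.5% and 18.1% of all genes tested. Of genes passing a filter of 5 FPKM, 30.8% and 27.4% fell. SNRPD3, an Sm-ring protein of the spliceosomal particles, averaged 23.7 ± 0.271 FPKM with geniposide and 41.9 ± 2.16 FPKM untreated in HepG2 and 34.7 ± 0.311 FPKM with geniposide and 60.7 ± 3.49 FPKM untreated in Huh7 (SD, n = 3). SNRPF, of the same ring, fell by 1.14 in HepG2 (adjusted p = 1.63e-06) and by 0.59 in Huh7 (adjusted p = 0.000222). PRPF31, SF3A3, PRPF38A and the U2 component SF3B1 also fell in both lines. PRPF31 changed by -0.86 in HepG2 (adjusted p = 1.20e-05) and SF3A3 by -0.68 (adjusted p = 1.14e-05), while in Huh7 PRPF38A changed by -0.75 (adjusted p = 9.42e-06) and SF3B1 by -0.45 (adjusted p = 3.23e-05). Of 19 genes of nonsense-mediated decay and the exon junction complex, 4 rose and 8 fell in HepG2 and 4 rose and 6 fell in Huh7, with medians of -0.14 and 0.01. The risen share of 21.1% in each line is near the 21.0% and 16.4% of all genes tested, and 42.1% fell in HepG2 and 31.6% in Huh7, against 21.5% and 18.1%. With a filter of 5 FPKM, 30.8% of genes fell in HepG2 and 27.4% in Huh7, the latter near the share of this list. Among these RBM8A, a subunit of the exon junction complex, fell in both lines (-0.42, adjusted p = 0.000878, and -0.62, adjusted p = 0.000124), as did its helicase EIF4A3 (-0.35, adjusted p = 0.00146, and -0.35, adjusted p = 0.00199). NBAS rose in both lines, by 0.36 in HepG2 (adjusted p = 0.000478) and by 0.18 in Huh7. Its Huh7 call held under 14 of 20 alternatives, with an adjusted p of up to 0.0992. The decay factors SMG8 and DHX34 fell in Huh7 by 0.68 (adjusted p = 0.000179) and 0.53 (adjusted p = 0.000938); their HepG2 changes, -0.25 for both (adjusted p = 0.0332 and 0.0354), held under 12 and 11 of 20 alternatives, with adjusted p of up to 0.132 and 0.120. The release factor ETF1 fell in HepG2 (-0.58, adjusted p = 0.0101).

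**Figure D5:**
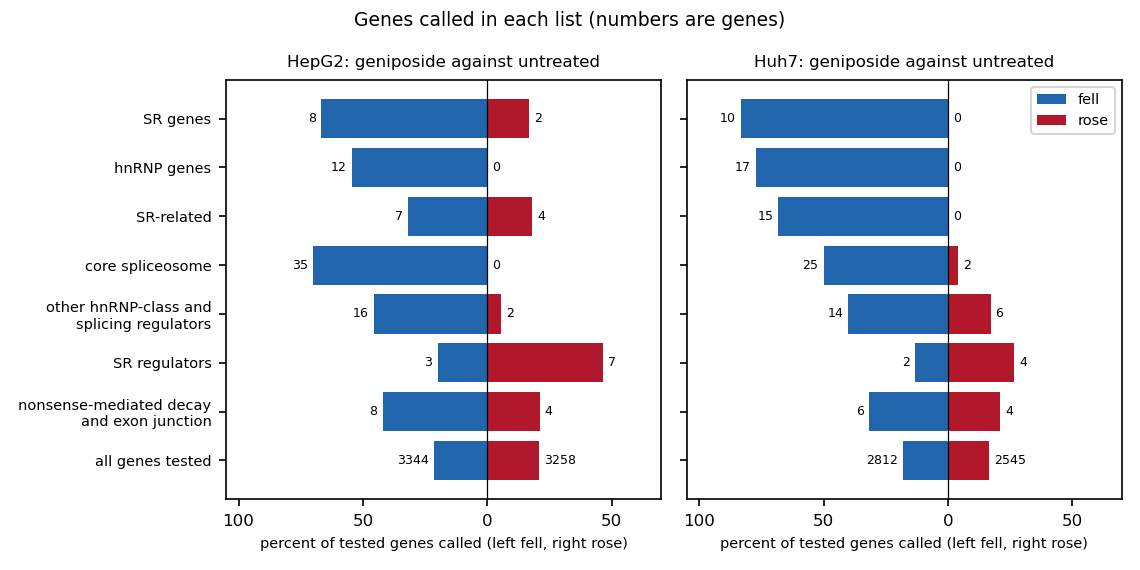
Share of tested genes called in each list, fallen to the left in blue and risen to the right in red, HepG2 in the left panel and Huh7 in the right; numbers beside the bars are genes. Falls outnumber rises in both lines in every list but the SR regulators. Of these, 7 of 15 rose in HepG2, where 21.0% of all genes tested rose.

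The annotation gives a shared feature that the choice by name did not use. All 12 SR genes have at least 1 transcript annotated in GENCODE 29 as a target of nonsense-mediated decay, and 13 of 22 hnRNP genes do, which makes 25 of 34 or 73.5%, against 42.0% of the 12150 protein_coding genes tested. A retained-intron transcript is annotated for 23 of 34 genes, 67.6%, against 56.9% of protein_coding genes tested. The annotation grows with how well a gene is studied, and the gene-level FPKM adds all transcripts of a gene, so a change in coding transcripts and a change in decay-prone or intron-retaining ones cannot be told apart in these data.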

How the data were processed

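Poly(A) RNA libraries from 12 samples (4 groups of 3) were quantified by the submitters, and the values used are the FPKM per gene that the authors deposited in a single table. The tools listed in the submitters' processing notes are CASAVA and fastp, and the build listed there is hg38; for versions, aligner and counter, nothing is stated in the labels. FPKM multiplied by gene length gave whole fragments within 0.05 for 100% of values, with 15056655 to 17211659 fragments per library; the FPKM denominator was 0.895 to 1.17 times that sum, and 3 fragments of a 1 kb gene correspond to 0.161 to 0.212 FPKM. These floors cover counting error only. Gene positions matched GENCODE 29 for all 58735 genes.

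Each gene reaching 1 FPKM in at least 3 of the 12 samples (15518 genes) was fitted on log2(FPKM + 1) with limma 3.58.1 in R 4.3.3, with 4 group means and a mean-dependent prior variance; fold changes on this scale understate changes of low genes. P-values are two-sided, adjusted by Benjamini-Hochberg over all 15518 genes and called under 0.05. The fits were also run on simulated data, in which each gene had the same spread in every library. That run did not cover a library that stands apart, as replicate 3 of treated Huh7 does, and no result here rests on it. Members and lists were chosen with earlier results of these data known. Values in every sample are given for the 8 largest called falls and rises per line, the 5 clearest differences between lines, the 3 largest differences each way between untreated lines, and SRSF1, SRSF2, SRSF3, SRSF7, HNRNPA1, HNRNPA2B1, HNRNPC, HNRNPK and HNRNPU; from each related list up to 4 called genes per line are named, by adjusted p, with their values in the other line where useful. Alternatives were a pseudocount of 0.1, no filter, a filter of 5 FPKM, TPM scaling, median-of-ratios scaling, limma voom on recovered fragments, each line alone, a replicate block and leaving out each sample. Promoter sequences are from RefSeq (GRCh38.p14).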

Additional observations from a re-analysis of the deposited data

Results flagged for a closer look

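The change with geniposide differed between the lines, by the limma contrast of the HepG2 change minus the Huh7 change, for 11 of the 34 genes, where 27.8% of all genes tested were called. The difference was 0.49 for SRSF4 (adjusted p = 0.000324) and 0.76 for SRSF5 (adjusted p = 0.000378), the genes that rose in HepG2 and fell in Huh7 in 3 of 3 treated libraries each. It was 0.37 for HNRNPF (adjusted p = 0.00363) and 0.35 for SRSF6 (adjusted p = 0.00969), which fell in both lines and fell less in HepG2. These 4 were called under all 19 alternatives.

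The other 7 were closer to the threshold. HNRNPDL differed by 0.28 (adjusted p = 0.0224) and kept the call under 14 of 19 alternatives, with an adjusted p of up to 0.0820. HNRNPA2B1 differed by 0.37 (adjusted p = 0.0279) and kept it under 8, and SRSF7 by 0.22 (adjusted p = 0.0338) and kept it under 8, with an adjusted p of up to 0.197. HNRNPH1 at 0.59 (adjusted p = 0.0324) and HNRNPU at 0.28 (adjusted p = 0.0326) kept it under 7 each. HNRNPD at 0.41 (adjusted p = 0.0452) kept it under 5, and SRSF11 at 0.35 (adjusted p = 0.0483) under 3. Without replicate 3 of the treated Huh7 libraries the difference was 0.27 for HNRNPD, 0.78 for HNRNPH1 and 0.47 for SRSF11.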

How the results depend on the processing

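Of the HepG2 calls, 21 of 22 held under every alternative run (exception SRSF9), and of the Huh7 calls 23 of 27 (exceptions SRSF9, SRSF10, HNRNPA1 and HNRNPA1P48). Between untreated lines 19 of 24 calls held, the exceptions being HNRNPC, HNRNPF, HNRNPLL, SRSF1 and SRSF5. The 19 include SRSF12, which passed the filter only through Huh7 and had to differ. Falls numbered 19 to 24 in HepG2 and 23 to 27 in Huh7 across settings, and 19 to 25 and 25 to 30 when 1 sample was left out. Of all genes in these fits, 8.6% to 30.8% fell in HepG2 and 7.1% to 27.4% in Huh7 across settings. With 1 sample left out these shares were 18.2% to 27.3% and 14.0% to 23.5%. Over single genes, 1872 comparisons with an alternative kept direction and side of the threshold, 113 lost the call, 20 gained it and 15 turned direction. The causes were not tested.

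A higher change again means a less negative or more positive one. The number of genes with the higher change in HepG2 (11) was 6 with no filter, 5 with voom and 4 to 15 when 1 sample was left out. Of all genes in these fits, 5.3%, 9.3% and 11.0% to 19.6% had the higher change. The number with the lower change (0) was 1 with voom and 0 to 2 when 1 sample was left out, where 13.7% and 10.5% to 20.2% of all genes had it. Genes higher in untreated HepG2 (4) numbered 2 with TPM scaling, 2 with voom and 2 to 6 when 1 sample was left out. Of all genes tested, 27.3% were higher with TPM scaling, 27.3% with voom and 34.0% to 39.0% with 1 sample left out. Replicate numbers did not pair the samples: the correlation of deviations between same-numbered samples ran from -0.0615 to 0.0201, and samples did not correlate best with their own number throughout. With the replicate block, 4 genes had the higher change in HepG2, 2 were higher in untreated HepG2, and in HepG2 2 SR-related genes and 2 genes of nonsense-mediated decay rose. Of all genes tested there, 10.5% had the higher change in HepG2, 30.6% were higher in untreated HepG2 and 18.7% rose in HepG2.

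Directions turned for genes that were not called. In HepG2 with TPM scaling HNRNPH1 was at 0.029, HNRNPA0 at 0.013, HNRNPH3 at 0.045 and HNRNPUL2 at 0.034; HNRNPH3 was at 0.0023 with median-of-ratios scaling and SRSF12 at -0.11 with voom. With 1 sample left out, HepG2 changes ran from -0.091 to 0.021 for HNRNPH1, from -0.050 to 0.0069 for HNRNPH3, from -0.076 to 0.0036 for HNRNPUL2 and from -0.0081 to 0.025 for SRSF12. Huh7 changes then ran from -0.0035 to 0.28 for HNRNPA1L2, from -0.18 to 0.23 for HNRNPH3 and from -0.064 to 0.23 for HNRNPLL, the lowest of HNRNPH3 and HNRNPLL being without geniposide replicate 3. The called untreated difference of HNRNPF turned to -0.11 with TPM scaling and -0.12 with voom.

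Of the related lists in Huh7, the SR regulators risen (4) numbered 2 with no filter, 0 with each line alone and 2 to 4 when 1 sample was left out, and those fallen (2) 1 with each line alone and 2 to 6. SR-related genes risen (0) numbered 1 with TPM scaling and 1 with voom. Core spliceosome genes risen (2) numbered 4 with voom, 1 with each line alone and 1 to 3, and those fallen (25) 15 with each line alone and 20 to 38. Risen genes of nonsense-mediated decay (4) numbered 2 to 5. In HepG2, SR regulators fallen (3) numbered 5 with each line alone and 3 to 5, other hnRNP-class genes risen (2) 5 with each line alone and 2 to 4, and SR-related genes risen (4) 2 to 5. Genes of nonsense-mediated decay fallen (8) numbered 5 with TPM scaling and 4 to 9, and those risen (4) 1 to 6. In Huh7, 9.8% of all genes tested rose and 11.2% fell with that line alone. The risen share was 7.4% with no filter, 21.0% with TPM scaling and 21.9% with voom. With 1 sample left out it was 12.5% to 22.6%, and the fallen share 14.0% to 23.5%. In HepG2, 24.3% rose and 25.2% fell with that line alone, and 17.4% fell with TPM scaling. With 1 sample left out 17.4% to 26.5% rose and 18.2% to 27.3% fell.

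Of all genes, 5357 were called in Huh7 (3266 with that line alone, 4113 to 7154 when 1 sample was left out), 6602 in HepG2, 4317 for the difference and 11146 between untreated lines (7220 with a filter of 5 FPKM). Rises made up 47.5% of Huh7 calls, 61.6% with TPM scaling and 60.5% with voom; between untreated lines 50.2% were higher in HepG2, and 36.6% under both.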
